A study of Mus musculus with 41 samples.

Results

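The 10 genes described here are the receptor pair for glial cell line-derived neurotrophic factor (GDNF) and a set of genes that GDNF is known to regulate in spermatogonial stem cells: Gfra1, Ret, Etv5, Etv4, Bcl6b, Lhx1, Pou3f1, T, Id4 and Eomes. They were chosen by name, and all 10 were found among the 55536 gene identifiers of both count tables by their GENCODE M21 symbols. The study concerns RHOX10, a homeobox transcription factor encoded on the X chromosome, and the series holds 41 mouse samples of the C57BL/6 strain. RNA-seq compared 4 libraries labelled wild-type with 4 labelled Rhox10-null, made from testis germ cells sorted by an OCT4-eGFP reporter, each library from the pooled testes of 3 animals whose age is not given in the sources used here. iSLAM-seq, which sequences metabolically labelled RNA after a factor is switched on, used 24 libraries of cultured germline stem (GS) cells derived from neonatal testes. All GS cells carried an shRNA lentivirus against Rhox10. They also carried either a Rhox10-ERT2-mCherry fusion that responds to 4-hydroxytamoxifen (here "Rhox10") or the ERT2-mCherry empty vector (here "Ctrl"). Each vector had 2 libraries per time, taken at 0, 0.5, 1, 2, 4 and 8 h. Whether the Ctrl cells also received 4-hydroxytamoxifen, and whether the medium held GDNF, was not established here. CUT&Tag, which tags DNA at the sites an antibody reaches, used 3 libraries of knocked-down GS cells with HA-tagged Rhox10, together with 3 IgG and 3 empty-vector libraries whose signals were not used here.

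GDNF is secreted by somatic cells of the testis, chiefly Sertoli cells, and binds GFRA1, a receptor anchored to the membrane by a lipid, which has no signalling domain of its own. The GDNF and GFRA1 complex activates RET, a receptor tyrosine kinase, and RET signals through Src family kinases, the PI3K and AKT pathway and the RAS pathway. In undifferentiated spermatogonia this signal raises the RNA of transcription factors that support self-renewal, among them Etv5, Bcl6b and Lhx1, and GFRA1 and ID4 are widely used to mark the most stem-like cells.

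RHOX10 peaks in the authors' table were annotated to 5 of the 10 genes, Pou3f1, Bcl6b, Eomes, Id4 and T. This was 50% of the members, against 20.6% of 21924 protein-coding symbols. The latter were taken whatever their expression, whereas all 10 members passed the iSLAM-seq filter on low counts. The share of expressed genes with a peak was not counted. The stretches printed here are 200 bases at or next to the centre of 3 of these peaks, in GRCm38 and on the strand of the gene. They are shown so that the homeodomain core TAAT, on either strand (TAAT or ATTA, in capitals), can be seen where it is present and where it is not.
Bcl6b, chr11:70229974-70230173, minus strand: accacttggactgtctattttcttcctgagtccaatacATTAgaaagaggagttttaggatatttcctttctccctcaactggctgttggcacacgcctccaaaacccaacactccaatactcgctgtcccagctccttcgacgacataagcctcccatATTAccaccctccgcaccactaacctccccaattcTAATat
Id4, chr13:48260816-48261015, plus strand: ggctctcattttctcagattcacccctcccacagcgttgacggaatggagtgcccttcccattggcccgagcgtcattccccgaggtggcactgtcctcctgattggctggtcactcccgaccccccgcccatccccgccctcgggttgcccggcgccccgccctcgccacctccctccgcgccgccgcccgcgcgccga
T, chr17:8434223-8434422, plus strand: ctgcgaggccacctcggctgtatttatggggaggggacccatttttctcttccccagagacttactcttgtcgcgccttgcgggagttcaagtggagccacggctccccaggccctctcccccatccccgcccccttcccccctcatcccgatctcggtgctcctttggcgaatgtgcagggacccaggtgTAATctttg
The Bcl6b stretch holds 3 TAAT matches and 5 CG dinucleotides at 47% GC, and the T stretch holds 1 match and 10 CG dinucleotides at 61.5% GC. The Id4 stretch holds 0 matches, with 21 CG dinucleotides at 70.5% GC. Over the central 200 bases of 5143 peaks, 18.4% held TAAT on either strand, and the medians were 17 CG dinucleotides and 66.5% GC. The longer palindrome TAATTA, which contains both forms of the core, was in 0 of the printed stretches and in 0.564% of the 5143. A match is a description of the letters and not a binding site. The Pou3f1 peak lies in an annotated untranslated region and is not printed, and its central window held 0 matches at 70% GC. Of all 5 peaks of the members, 2 held TAAT in their central window.

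Each of the 5 peaks lay close to a start site and was listed for all 3 RHOX10 libraries, with a score that is the authors' own. The Pou3f1 peak (chr4:124656875-124657440) had the highest score, 151.7, ranking 2197 of 5147, and it alone lay above the median score of 127.5. The Bcl6b peak (chr11:70229614-70230532) scored 85.7 and was centred 275 bases upstream of a start site. The Eomes peak, which the authors annotate as exonic, scored 77.4, and the Id4 peak (chr13:48260652-48261178) scored 75.0. The T peak (chr17:8433944-8434997) had the lowest score, 43.0, ranking 4598, and was centred 47 bases downstream of a start site. No peak was annotated to Gfra1, Ret, Etv5, Etv4 or Lhx1, and the nearest peak was centred 57905 bases downstream of a start site for Ret and 358992 bases downstream for Gfra1. The corresponding distances, negative for upstream, were -199218 bases for Etv4, -344932 for Lhx1 and -418035 for Etv5. Both receptor genes were therefore without a listed peak within 50 kb of a start site. These distances do not measure from the gene body: the peak nearest Ret (chr6:118138939-118139517) lay just beyond the gene's downstream end at 118151745.

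Before the expression results, several properties of the libraries bear on them. The RNA-seq libraries held 6602089 to 8278887 counts, but Gm42418 alone took 58.0% to 59.4% of them in wild-type and 51.0% to 52.7% in libraries labelled null, and 1379870 to 2128523 counts were left once the 8 genes above 1% of any library were set aside. The iSLAM-seq libraries held 9419615 to 12645845 counts. Rhox10 itself had 3 to 10 RNA-seq counts in wild-type and 4 to 11 in the libraries labelled null, so its counts do not verify the genotype, and the null group is named by its label throughout. In iSLAM-seq, Rhox10 was at 34.0 to 46.6 CPM (counts scaled to a common library size) in the Rhox10 libraries and 0.202 to 2.41 CPM in Ctrl, and the gap was already present at 0 h. The sorted cells carried RNA of other types: the 22 germline markers summed to 444 to 486 CPM in wild-type and 240 to 262 CPM in libraries labelled null, and 8 tested peritubular and stromal markers included 7 that were higher in the latter. The 2 Ctrl libraries at 0.5 h stood apart from each other (Pearson r 0.956 across genes, chi-square per degree of freedom 26.6, against 4.57 at most for the other 23 pairs of libraries of 1 group), and the values they move most are also given without them.

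All 9 members that passed the filter on low counts were lower in the libraries labelled null than in wild-type, whereas 18.8% of the 13538 genes tested were lower. The 9 members had a median log2 fold change of -1.19, against 0.00 over all genes tested. Levels are in CPM after TMM scaling, and tests are edgeR's quasi-likelihood test with Benjamini-Hochberg adjustment over all tested genes, called at 0.05. For these 9 genes the highest library labelled null lay below the lowest wild-type library, as the plot of RNA-seq levels by library shows. The share of all genes that separate in this way was not counted, and 37.5% of them were called in either direction.

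**Figure D1:**
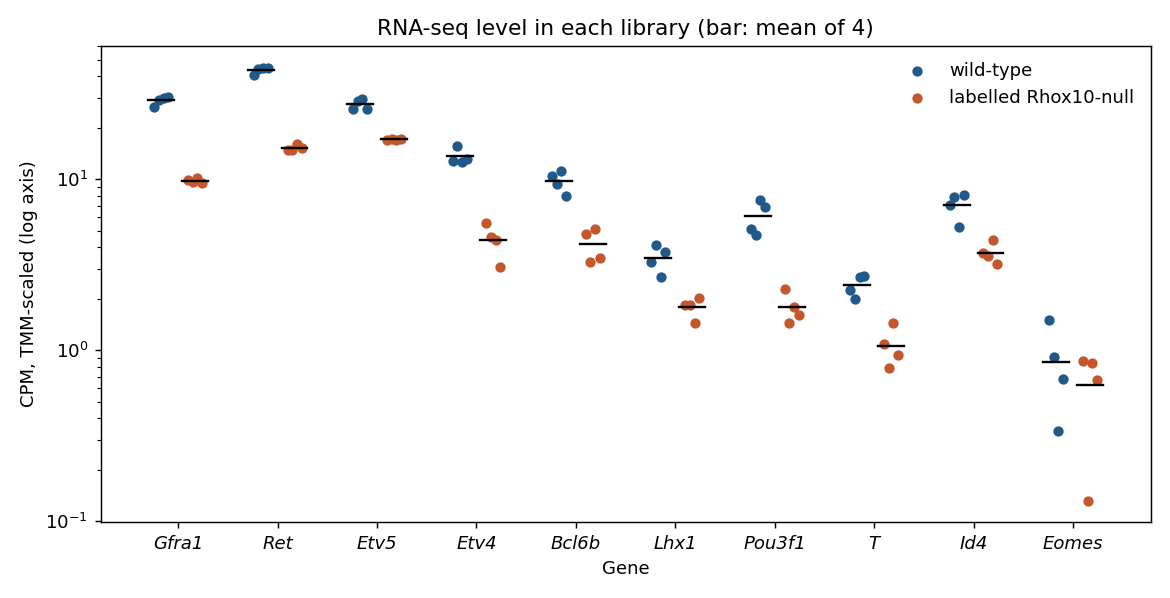
RNA-seq level of each of the 10 genes in CPM on a log axis, with 1 point per library, 4 wild-type and 4 labelled Rhox10-null, and a bar at each group's mean. The groups are separate for every gene except Eomes, from Ret (40.9 to 45.1 CPM in wild-type, 14.8 to 16.0 CPM labelled null) down to T (1.98 to 2.70 and 0.791 to 1.44 CPM).

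Both receptor genes fell to about the same degree. Gfra1 (ENSMUSG00000025089, GRCm38 chromosome 19, 58235604 to 58455909, minus strand) was at 26.6, 29.1, 30.0 and 30.5 CPM in wild-type and at 9.89, 9.62, 10.2 and 9.51 CPM in the libraries labelled null. Its log2 fold change was -1.57 (standard error 0.0864, edgeR adjusted p = 4.63e-19). Ret (ENSMUSG00000030110, chromosome 6, 118151745 to 118197718, minus strand) was at 40.9, 44.3, 44.9 and 45.1 CPM in wild-type and at 14.8, 14.9, 16.0 and 15.3 CPM in the libraries labelled null. The change was -1.52 on the log2 scale (standard error 0.0697, edgeR adjusted p = 5.13e-22). In each case the spread within a genotype was small beside the gap between genotypes.

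The ETS factors Etv5 and Etv4, close relatives of each other, fell by different amounts. Etv5 (chromosome 16, 22381309 to 22439719, minus strand), whose loss in mice depletes spermatogonial stem cells, was at 25.9, 28.7, 29.7 and 25.7 CPM in wild-type and at 16.96, 17.3, 17.1 and 17.3 CPM in the libraries labelled null. That fall, -0.67 on the log2 scale (standard error 0.0773, edgeR adjusted p = 2.16e-09), was the smallest of the 9. Etv4 (chromosome 11, 101769742 to 101785371, minus strand) was at 12.9, 15.7, 12.7 and 13.2 CPM in wild-type and at 5.54, 4.61, 4.42 and 3.08 CPM in the libraries labelled null, which is -1.60 on the log2 scale (standard error 0.137, edgeR adjusted p = 7.92e-13). The difference between the falls of the 2 genes was not tested.

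Among the other transcription factors, Pou3f1 had the largest fall. Pou3f1 (chromosome 4, 124656807 to 124660655, plus strand), a POU homeodomain factor, was at 5.09, 4.72, 7.59 and 6.89 CPM in wild-type and at 2.28, 1.45, 1.79 and 1.61 CPM in the libraries labelled null (log2 fold change -1.74, standard error 0.211, edgeR adjusted p = 9.41e-09). Bcl6b (chromosome 11, 70224128 to 70229798, minus strand), a zinc finger repressor of the BCL6 family, was at 10.5, 9.45, 11.1 and 7.97 CPM in wild-type and at 4.78, 3.30, 5.14 and 3.48 CPM in the libraries labelled null (log2 fold change -1.19, standard error 0.152). Lhx1 (chromosome 11, 84518284 to 84525535, minus strand), a LIM homeodomain factor, was at 2.70 to 4.11 CPM and 1.44 to 2.01 CPM (log2 fold change -0.97, standard error 0.234, edgeR adjusted p = 0.00100). These are low counts, 16 to 28 and 12 to 17 reads per library, and the groups of 4 libraries did not overlap in CPM.

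T and Id4 were lower too, and Eomes was too scarce to test in the fit. T (chromosome 17, 8434423 to 8442496, plus strand), the T-box factor brachyury, was at 1.98 to 2.70 CPM in wild-type and 0.791 to 1.44 CPM in the libraries labelled null (log2 fold change -1.15, standard error 0.287, edgeR adjusted p = 0.00137). Id4 (chromosome 13, 48261228 to 48266026, plus strand), an inhibitor of basic helix-loop-helix factors, was at 7.04, 7.92, 5.23 and 8.10 CPM in wild-type and 3.70, 3.56, 4.42 and 3.21 CPM in the libraries labelled null (log2 fold change -0.93, standard error 0.165, edgeR adjusted p = 1.65e-05). Eomes (chromosome 9, 118478212 to 118486132, plus strand), a T-box factor found in a subset of GFRA1-positive spermatogonia, had 1 to 10 reads per library. Its share of the library totals was 0.755 ± 0.421 CPM (SD, n = 4) for wild-type libraries and 0.704 ± 0.383 CPM (SD, n = 4) for those labelled null. No difference was detectable at this depth (two-sided exact permutation test, 70 arrangements, p = 0.886, where the smallest possible is 0.0286).

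Per kilobase of exon, the mean levels of the members came in the same order in both genotypes, though several neighbours overlapped. In wild-type, Etv5 (6.70 CPM per kb) and Ret (6.48) led and overlapped each other, followed by Gfra1 (5.31) and Etv4 (4.39), which also overlapped. Bcl6b (2.62) came next, then Id4 (1.84) and Pou3f1 (1.58), whose ranges overlapped, then T (1.04) and Lhx1 (0.853), which overlapped as well, and Eomes was lowest at 0.206. In the libraries labelled null, Etv5 (4.18 CPM per kb) stood clear of Ret (2.25). There Gfra1 (1.79) overlapped Etv4 (1.42), Etv4 overlapped Bcl6b (1.12), and Bcl6b overlapped Id4 (0.967), while Pou3f1 (0.463), T (0.459) and Lhx1 (0.438) could not be told apart by their ranges.

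The germline markers moved in the same direction as the members. All 22 of 22 genes on the germline list were lower in the libraries labelled null, with a median log2 fold change of -0.87, and Dazl, the list's most abundant gene, averaged 77.3 ± 4.32 CPM (SD, n = 4) among wild-type libraries and 36.5 ± 1.98 CPM (SD, n = 4) among those labelled null. In bulk RNA, fewer cells of a type and less RNA per cell cannot be told apart. Summed markers of Sertoli cells were at 587 to 629 CPM in wild-type and 638 to 658 CPM labelled null, those of Leydig cells at 73.4 to 75.4 and 88.3 to 95.3 CPM, those of peritubular and stromal cells at 444 to 468 and 703 to 743 CPM, and those of endothelial cells and macrophages at 36.6 to 41.9 and 52.0 to 58.8 CPM. Erythroid markers stood at 1.35 to 4.05 CPM in wild-type, where Slc4a1 was at 0, and at 77.9 to 86.3 CPM in the libraries labelled null. The part of these shifts in the members' falls was not tested, but the members can be set against the germline list itself.

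Counted per 1000 reads of the 22 germline genes, the members no longer moved together. Gfra1 was at 54.8 to 67.0 in wild-type and 36.8 to 42.4 labelled null, and Ret at 84.1 to 99.9 and 56.9 to 66.9, so the receptors stayed separate. Etv5 went the other way, 53.3 to 65.6 in wild-type and 66.0 to 71.4 labelled null. Bcl6b overlapped between genotypes at 17.5 to 24.6 and 12.59 to 21.5, and Id4 at 11.5 to 17.9 and 13.3 to 18.5. In the edgeR fit scaled to that list, which raised the median of all genes tested to 0.89 on the log2 scale, Gfra1 (-0.68), Ret (-0.63), Etv4 (-0.72) and Pou3f1 (-0.85) remained lower, and Etv5 was higher (0.21, standard error 0.0878, edgeR adjusted p = 0.0200). Bcl6b (-0.30, edgeR adjusted p = 0.0656), T (-0.27, edgeR adjusted p = 0.378), Lhx1 (-0.08, edgeR adjusted p = 0.736) and Id4 (-0.04, edgeR adjusted p = 0.808) were no longer called. Relative to other germline RNA, 4 of the 9 genes were thus lower, both receptors among them. Of the 22 germline genes themselves, 6 (27.3%) were lower and 2 higher under that scaling. Over all genes tested 0.510% were lower and 90.2% higher.

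**Figure D2:**
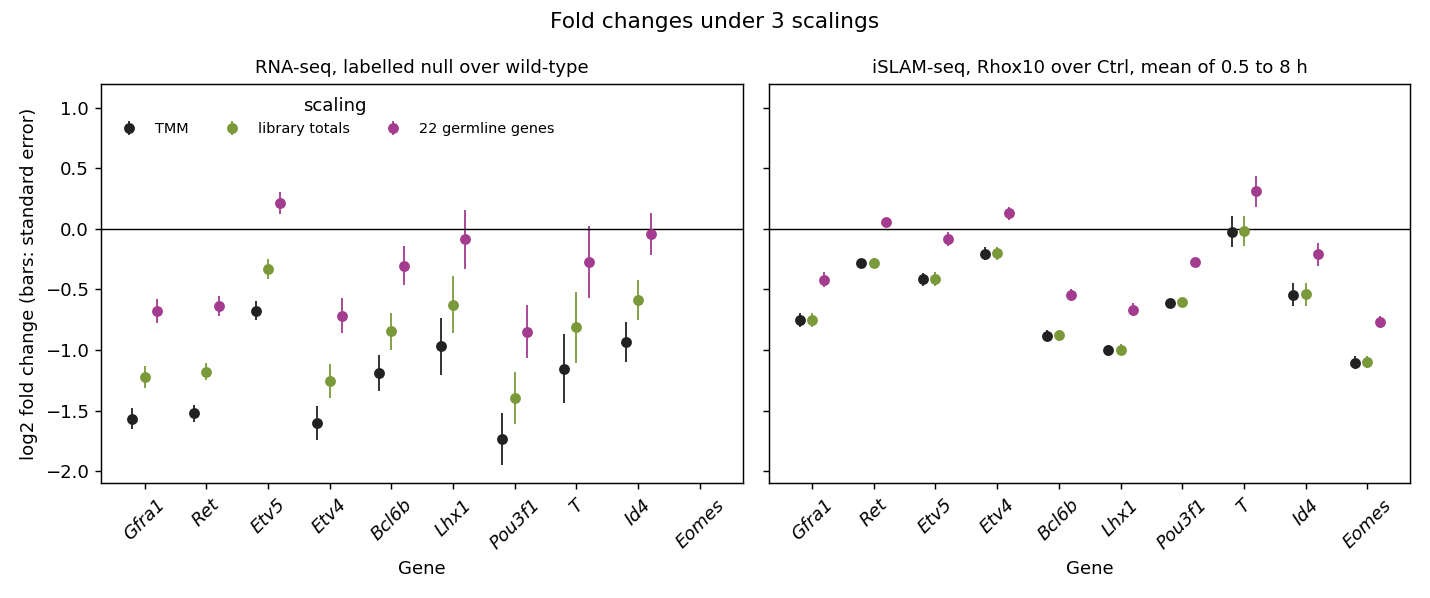
Log2 fold change of each member, with its standard error, under 3 scalings, for RNA-seq on the left (labelled null over wild-type) and for iSLAM-seq on the right (Rhox10 over Ctrl, mean of 0.5 to 8 h); Eomes was not tested in RNA-seq and has no point there. Scaling to 22 germline genes moves every value upward, to 0.21 for Etv5 in RNA-seq and to 0.31 for T in iSLAM-seq, and library totals lie between the others in RNA-seq.

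Among other genes of the GDNF pathway, RNA-seq gave calls in both directions. Over all genes tested 18.7% were higher and 18.8% lower, and whether the lists differ from that was not tested. Of 9 other ligands and receptors, 3 were tested and 2 were higher, Gfra2 (0.94), the receptor for neurturin, and Ncam1 (0.80), an alternative partner for GFRA1. Gdnf had a mean of 10.7 ± 0.529 CPM (SD, n = 4) among wild-type libraries and of 11.997 ± 0.413 CPM (SD, n = 4) among those labelled null, a log2 fold change of 0.16 that was not called (edgeR adjusted p = 0.272). Of 32 tested genes for signalling downstream of RET, 7 were higher and 4 lower, and 21 were not called. Grb7, an adaptor that binds RET, was at 3.22 ± 0.968 CPM (SD, n = 4) and 0.867 ± 0.176 CPM (SD, n = 4), from 6 to 30 reads per library. Its log2 fold change was -1.88, beyond the -1.74 of Pou3f1, and it stayed lower under germline scaling (-0.998). Its relative Grb10 (0.73) and the kinase Braf (0.43) were higher, while Pik3cb (-0.56) was lower but turned to 0.33 under germline scaling. Of 10 other genes known to respond to GDNF, Fos (0.29) was higher and Dusp6 (-0.35) lower, and Dusp6 turned to 0.54 under germline scaling. Of 9 tested relatives of the members, 3 were higher, Etv1 (0.48), Id2 (0.44) and Bcl6 (1.13), and 6 were not called. These counts depended on the scaling: to the germline list, 31 of the 32 signalling genes, 9 of the 10 responsive genes and all 9 relatives were higher, as were 90.2% of all genes tested.

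In the GS cells, where RHOX10 was added back, the members were again mostly lower. Averaged over 0.5 to 8 h, 9 of the 10 were lower in Rhox10 than in Ctrl libraries, against 18.4% of the 20642 genes tested, with a median log2 fold change of -0.58 over the members and 0.00 over all genes tested. Much of this was present at 0 h, before induction: 7 of 10 members were already lower, against 4.32% of all genes tested, with a median of -0.42. The count was 7 members at 0.5 h (against 6.50% of all genes) and 5 at 1 h (3.90%). It was 6 at 2 h (3.94%), then 7 at 4 h (5.74%), and it reached 9 at 8 h (8.79%). Every call was in the lower direction. The averaged contrast therefore mixes a difference between the 2 cell populations with any change after induction, and the changes from 0 h are given separately. Without all 4 libraries at 0.5 h, 9 members were again lower on average, where 39.3% of 20362 genes were called in either direction, and the averages were -0.75 for Gfra1, -0.23 for Ret, -0.35 for Etv5 and -0.19 for Etv4. They were -0.91 for Bcl6b, -1.05 for Lhx1, -0.59 for Pou3f1, -0.60 for Id4 and -1.11 for Eomes. At 0.5 h itself, 9 members were called without the first Ctrl library (26.9% of all genes) and 8 without the second (10.3%).

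**Figure D3:**
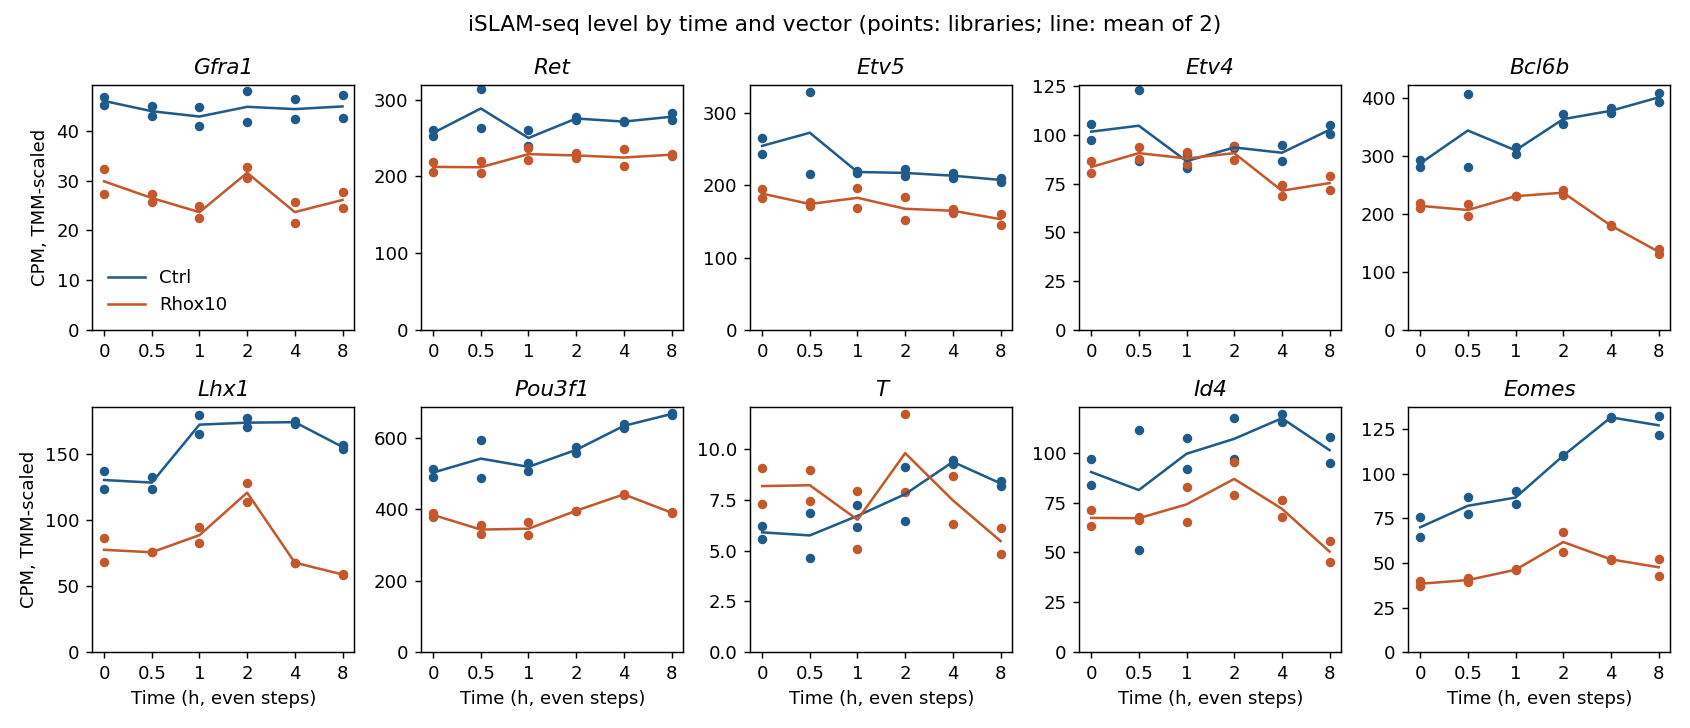
iSLAM-seq level of each member in CPM against time, with 1 point per library, 2 per vector and time, and lines through the means. For Bcl6b the lines part over time, from 281 to 293 CPM (Ctrl) and 210 to 219 CPM (Rhox10) at 0 h to 393 to 409 and 131 to 139 CPM at 8 h, whereas for Gfra1 and Ret every Ctrl library lies above every Rhox10 library.

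Both receptors were lower in Rhox10 libraries already at 0 h. Gfra1 was at 45.1 and 46.8 CPM in Ctrl and 27.4 and 32.3 CPM in Rhox10 at 0 h, and at 47.1 and 42.7 CPM against 24.4 and 27.8 CPM at 8 h. Over all times the 12 Ctrl libraries (40.9 to 47.9 CPM, median 44.9) and the 12 Rhox10 libraries (21.6 to 32.6 CPM, median 26.6) did not overlap. The share of all genes without such overlap in iSLAM-seq was not counted, here or for the members below. The log2 difference of Gfra1 was -0.62 at 0 h, then -0.73, -0.86, -0.50, -0.91 and -0.78 at 0.5, 1, 2, 4 and 8 h, each of them called, and averaged -0.75 (standard error 0.0594, edgeR adjusted p = 5.98e-10). Ret was at 239 to 314 CPM in Ctrl (up to 283 CPM without the 0.5 h libraries) and 204 to 236 CPM in Rhox10, again without overlap. Its log2 difference was -0.27 at 0 h, -0.44 at 0.5 h, -0.13 at 1 h (not called, edgeR adjusted p = 0.388), -0.28 at 2 h, -0.27 at 4 h and -0.28 at 8 h, with an average of -0.28 (standard error 0.0356, edgeR adjusted p = 1.06e-06). At 0.5 h that of Ret was -0.58 without the first Ctrl library and -0.31 without the second. A change of the difference from 0 h was not called for either gene (edgeR F-test adjusted p = 0.727 for Gfra1 and adjusted p = 0.647 for Ret). Without the first Ctrl library at 0.5 h it was called for Ret (edgeR adjusted p = 0.00313), and with 1 library left out at a time that of Gfra1 ran from 0.533 to 0.901. Under germline scaling Gfra1 stayed lower on average (-0.42), and Ret did not (0.06, edgeR adjusted p = 0.218).

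Etv5 and Etv4 showed small differences. Etv5 was at 204 to 329 CPM (median 217; up to 266 CPM without the 0.5 h libraries) in Ctrl and 146 to 196 CPM (median 170) in Rhox10, with no overlap over 12 and 12 libraries and an averaged log2 difference of -0.42 (standard error 0.0567, edgeR adjusted p = 2.81e-06). The log2 difference of Etv5 was already -0.43 at 0 h (edgeR adjusted p = 0.0289). At 0.5 h it was -0.65, and it was -0.93 without the first Ctrl library and -0.31 without the second. At 1, 2 and 4 h it was -0.26, -0.37 and -0.37, not called (edgeR adjusted p = 0.235, 0.0650 and 0.0600). By 8 h it was -0.44 (edgeR adjusted p = 0.0199). Etv4 overlapped between vectors at 0.5, 1 and 2 h, when its log2 differences were -0.21, 0.02 and -0.05, and was lower at 8 h, at 71.9 and 78.6 CPM in Rhox10 against 100.1 and 105 CPM in Ctrl (log2 difference -0.44, edgeR adjusted p = 0.0118). The Ctrl libraries at 0.5 h read 86.5 and 123 CPM for Etv4, and its difference there was -0.45 (edgeR adjusted p = 0.000230) without the first and 0.07 (edgeR adjusted p = 0.808) without the second. Under germline scaling the averaged difference of Etv5 was -0.08 (edgeR adjusted p = 0.241) and that of Etv4 was 0.13 (edgeR adjusted p = 0.0435), now higher in Rhox10.

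Bcl6b and Lhx1 were the members whose difference changed after induction by the F-test over all times, 2 of 10 against 2.39% of all genes tested. Bcl6b was at 293 and 281 CPM in Ctrl and 219 and 210 CPM in Rhox10 at 0 h. By 8 h it was at 409 and 393 CPM in Ctrl and 139 and 131 CPM in Rhox10. The log2 difference thus went from -0.42 to -1.57, a change of -1.15 (standard error 0.146, edgeR adjusted p = 2.64e-05), and the F-test over all times gave an edgeR adjusted p of 6.14e-05. Both vectors moved: Ctrl changed by 0.48 (edgeR adjusted p = 0.00505) and Rhox10 by -0.67 (edgeR adjusted p = 0.000153) from 0 to 8 h.

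Lhx1 rose in both vectors by 2 h and then fell back in Rhox10. In Ctrl it went from 137 and 123 CPM at 0 h to 177 and 171 CPM at 2 h and stood at 154 and 157 CPM at 8 h. In Rhox10 it went from 86.4 and 68.6 CPM to 113 and 128 CPM at 2 h and then to 59.0 and 58.6 CPM at 8 h. The changes from 0 h within Rhox10 were 0.64 at 2 h (edgeR adjusted p = 0.000404) and -0.40 at 8 h (edgeR adjusted p = 0.0192), and that within Ctrl was 0.41 at 2 h (edgeR adjusted p = 0.0316). Its log2 difference between vectors was -0.75 at 0 h, -0.53 at 2 h and -1.40 at 8 h (F-test of the change, edgeR adjusted p = 0.000924). Under germline scaling Bcl6b (-0.55) and Lhx1 (-0.67) stayed lower on average.

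Pou3f1 and Eomes rose over time in Ctrl. Pou3f1 went from 514 and 492 CPM at 0 h to 664 and 669 CPM at 8 h in Ctrl (change 0.41, edgeR adjusted p = 0.000990), and in Rhox10 stood at 379 and 390 CPM and then 391 and 390 CPM (change 0.02, edgeR adjusted p = 0.904). Between these times Pou3f1 in Rhox10 was at 328 and 363 CPM at 1 h and 443 and 441 CPM at 4 h. Its time course within Rhox10 was called (edgeR F-test adjusted p = 0.00831). The 12 libraries of each vector did not overlap. Eomes, barely detected in the sorted cells, went from 64.4 and 75.4 CPM to 122 and 132 CPM in Ctrl (change 0.86, edgeR adjusted p = 2.25e-05). In Rhox10 it went from 39.8 and 36.9 CPM to 56.2 and 67.1 CPM at 2 h (change 0.68, edgeR adjusted p = 0.000852), and its 42.8 and 52.4 CPM at 8 h were a change of 0.31 that was not called (edgeR adjusted p = 0.123). The test of the change from 0 h to 8 h between vectors called Pou3f1 (-0.38, edgeR adjusted p = 0.0468) beside Bcl6b and Lhx1, 3 of 10 against 1.69% of all genes tested, and gave -0.55 for Eomes (edgeR adjusted p = 0.0778). The F-test of the change over all times called neither Pou3f1 (edgeR adjusted p = 0.303) nor Eomes (edgeR adjusted p = 0.0993).

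T and Id4 were the least settled members. T had only 46 to 146 reads per library. Its log2 difference was 0.47 at 0 h and -0.60 at 8 h, neither called, and its average was -0.02 (standard error 0.125, edgeR adjusted p = 0.917), or 0.31 under germline scaling (edgeR adjusted p = 0.0407). Id4 was at 96.9 and 83.7 CPM in Ctrl and 71.2 and 63.4 CPM in Rhox10 at 0 h, and at 108 and 94.9 against 55.7 and 45.1 CPM at 8 h. Its log2 difference was -0.42 at 0 h (edgeR adjusted p = 0.237) and -1.01 at 8 h (edgeR adjusted p = 0.00202), and averaged -0.54 (standard error 0.0951), or -0.21 under germline scaling (edgeR adjusted p = 0.0732). The 2 Ctrl libraries at 0.5 h read 111 and 51.2 CPM for Id4, the widest iSLAM-seq pair for this gene, and its difference at 0.5 h was -0.28 with both and 0.38 (edgeR adjusted p = 0.0304) without the first.

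**Figure D4:**
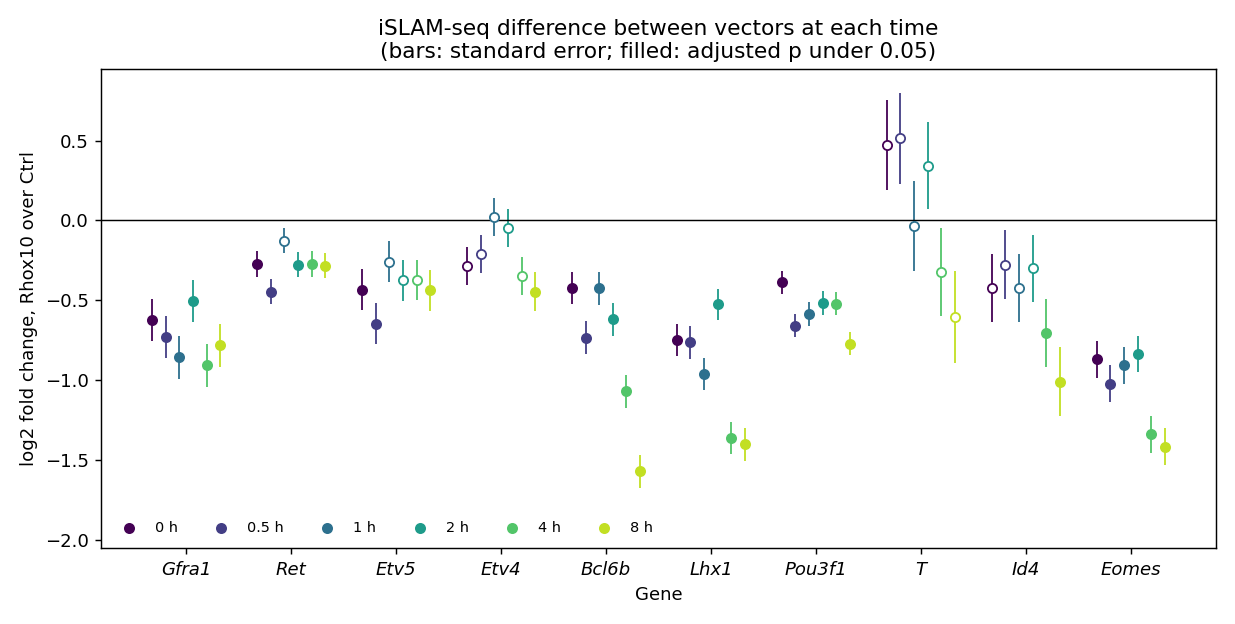
Log2 fold change of Rhox10 over Ctrl for each member at 0, 0.5, 1, 2, 4 and 8 h in iSLAM-seq, with standard errors; filled points have an adjusted p under 0.05. Most points lie below 0 already at 0 h, and Bcl6b, Lhx1, Id4 and Eomes reach -1.57, -1.40, -1.01 and -1.42 at 8 h.

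Within each vector, the same 4 members changed over time by the F-test, Bcl6b, Lhx1, Pou3f1 and Eomes. This was 4 of 10 in Ctrl against 5.74% of all genes tested, and 4 of 10 in Rhox10 against 9.44%. The receptors were not called: the changes of Gfra1 from 0 h lay between -0.10 and -0.03 in Ctrl and between -0.33 (1 and 4 h) and 0.08 (2 h) in Rhox10. Those of Ret lay between -0.04 and 0.17 in Ctrl and between -0.0032 and 0.11 in Rhox10. Without the first Ctrl library at 0.5 h, the time course of Ret within Ctrl was called (edgeR adjusted p = 0.00113). The number of members whose difference changed from 0 h rested on the 0.5 h libraries. The share of all genes called rose with it. It was 8 without the first Ctrl library at 0.5 h (against 19.5% of all genes), which added Ret and Etv5 among others, and 6 without the second (7.02%). It was also 6 without all 4 libraries at 0.5 h (7.34%), when Etv4 (edgeR adjusted p = 0.0198), Pou3f1 (edgeR adjusted p = 0.000479), Id4 (edgeR adjusted p = 0.00575) and Eomes (edgeR adjusted p = 0.00140) joined Bcl6b and Lhx1. Without the first Ctrl library at 0.5 h, 8 members changed within Ctrl (27.4% of all genes) and 7 within Rhox10 (20.4%). Without the second, 5 changed within Ctrl (10.9%) and 7 within Rhox10 (20.6%). Without all 4 libraries at 0.5 h, 5 changed within Ctrl (10.8%), Etv5 being the one added, and 8 within Rhox10 (20.9%).

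Markers of other cell types were also read in the GS cells. Summed germline markers were at 2830 to 3539 CPM in Ctrl and 2605 to 2936 CPM in Rhox10 libraries, and 15 of 22 were lower in the averaged contrast, with a median log2 fold change of -0.31. Markers of differentiating spermatogonia summed to 648 to 727 CPM in Ctrl and 680 to 784 CPM in Rhox10. Of 9 tested, 4 were higher and 2 lower on average, where 18.7% and 18.4% of all genes were. Peritubular and stromal markers summed to 990 to 1611 CPM and 1179 to 2012 CPM. Sertoli markers were at 259 to 500 and 303 to 632 CPM, with Amh and Rhox8 at 0 in every library, and Leydig markers were at 9.30 to 17.4 and 8.12 to 14.2 CPM, with Hsd3b1, Insl3 and Lhcgr at 0. Their part in the members' differences was not tested. Scaling to the 22 germline genes raised the median of all genes tested to 0.33 and left 5 members lower on average (Gfra1, Bcl6b, Lhx1, Pou3f1 and Eomes), against 2.49% of all genes. That scaling left 2 members lower at 0 h (0.664%) and 6 at 8 h (2.00%). Of the 22 germline genes themselves, 6 (27.3%) were lower on average, 2 (9.09%) at 0 h and 1 (4.55%) at 8 h. In the same order 4, 0 and 2 of them were higher.

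Other genes known to respond to GDNF included 4 whose difference changed after induction. Of 11 tested, 5 were lower and 2 higher in Rhox10 on average, where 18.4% of all genes were lower and 18.7% higher. Egr2, Egr3, Fos and Ccnd2 passed the F-test of the change from 0 h, which called 2.39% of all genes. Egr3, an early growth response factor, was at 125 to 140 CPM in Ctrl and 90.4 to 95.4 CPM in Rhox10 at 0 h. At 8 h it was at 129 to 142 CPM in Ctrl and 31.2 to 32.7 CPM in Rhox10, so that its log2 difference went from -0.52 to -2.08 (change -1.56, standard error 0.126, edgeR adjusted p = 3.27e-08). Egr2 went from -0.37 to -1.79 (change -1.42, standard error 0.242, edgeR adjusted p = 0.000984). Fos fell in both vectors, from 190 to 192 CPM to 19.7 to 20.7 CPM in Ctrl and from 249 to 261 CPM to 15.3 to 16.2 CPM in Rhox10. On average Egr3 (-1.24), Egr2 (-0.97) and Fos (-0.50) stayed lower under germline scaling (-0.90, -0.63 and -0.17), while Ccnd2 (-0.18) turned to 0.16.

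The other pathway lists gave calls in both directions in GS cells, as did all genes tested (18.7% higher, 18.4% lower), and whether the lists differ from that was not tested. Of 7 tested ligands and receptors, 2 were higher and 3 lower on average. Gdnf itself was at 9.14 to 9.31 CPM in Ctrl and 11.5 to 11.98 CPM in Rhox10 at 0 h, and averaged 0.62 higher on the log2 scale over 0.5 to 8 h (standard error 0.108, edgeR adjusted p = 6.18e-05). By 8 h it was at 4.67 to 8.56 CPM in Ctrl and 3.62 to 5.02 CPM in Rhox10, a log2 difference of -0.61 that was not called (edgeR adjusted p = 0.120). Of 35 signalling genes, 9 were higher and 4 lower, with Dok1 (0.67), a docking protein, among the former and Grb7 (-0.75), which was also lower in the libraries labelled null, among the latter. Of 15 tested relatives of the members, 7 were higher and 2 lower. Etv1, the third ETS factor of the Etv4 and Etv5 family, was the strongest of these, at 8.61 to 9.66 CPM in Ctrl and 21.8 to 23.1 CPM in Rhox10 at 0 h and at 6.47 to 7.21 and 30.4 to 31.5 CPM at 8 h (averaged log2 difference 1.45, standard error 0.0879, edgeR adjusted p = 6.65e-12), with Elk3 (0.62) and Id2 (0.55) also higher. Etv1, Elk3 and Id2 stayed higher under germline scaling (1.78, 0.96 and 0.88), as did Gdnf (0.96) and Dok1 (1.00), and Grb7 stayed lower (-0.42). That scaling made 31 of the 35 signalling genes and 10 of the 15 relatives higher, and 51.5% of all genes tested.

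Genes whose profile was most like a member's were found by Pearson correlation of log2 CPM over the 12 iSLAM-seq group means, among 12054 genes with a mean of at least 5 CPM. For Gfra1 these were Med23 (r = 0.984), Zdhhc14 (0.980) and Siah1b (0.977), and for Ret they were Mrps9 (0.980), Tsn (0.979) and Rpa2 (0.977). For Etv5 they included Ankrd31 (0.980) and Zfp36l2 (0.977), and for Bcl6b Pdlim4 (0.981), Ppp6r3 (0.977) and Cdk12 (0.976). The 12 means fall into 2 sets by vector and share libraries and scaling, so these values mainly describe genes with a like difference between vectors.

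RefSeq promoter windows (GRCm38.p6) were at hand for 6 of the 10 genes. TAAT on either strand was found 4 times in that of Eomes and once each in those of Lhx1 and T, and it was not found in those of Gfra1, Id4 or Etv5, whereas 58.0% of 32851 promoters held it. No window of a member held TAATTA, against 5.29% of all promoters. Of the 5 members with a peak, all but Eomes, which was not tested in that fit, were called lower in RNA-seq. All but T of these 5 were lower in Rhox10 libraries on average. Of the 5 without a peak all were lower in both comparisons, where 18.8% and 18.4% of all genes tested were lower. Gfra1, Pou3f1, Id4 and Eomes overlap genes on the opposite strand (Gm16277, Gm2164, A330033J07Rik with Gm49291, and Gm33460), and the strand setting used for counting is not given in the sources used here, so reads from such partners cannot be told apart.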

How the data were processed

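RNA-seq (8 libraries) and iSLAM-seq (24) were analysed from the authors' deposited tables of raw read counts, which hold a column for each library (0 further sample columns), per the file headers. For RNA-seq the submitters' processing notes name STAR 2.5.2b, Subread, featureCounts and GRCm38, and for iSLAM-seq mm10. Whether all or only converted iSLAM-seq reads were counted is not given in the sources used here. For CUT&Tag those notes name Bowtie2 2.2.5, SAMtools, HOMER and mm10, and the authors' deposited table gives a score, their own, to every merged peak.

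Counts were tested with edgeR 4.0.16 (limma 3.58.1, R 4.3.3; quasi-likelihood, TMM, filterByExpr, Benjamini-Hochberg over all tested genes, threshold 0.05): genotype alone for RNA-seq, and 12 group means for iSLAM-seq, with contrasts per time, averaged over 0.5 to 8 h, and F-tests of change from 0 h. Standard errors are the absolute log2 fold change over the square root of F. The fits were tested on simulated data with 200 genes changed 2-fold. They recovered 199 in RNA-seq, 200 in the iSLAM-seq average and 118 in the change from 0 to 8 h, with 11, 12 and 9 false calls. A change from 0 h of that size can therefore go uncalled. Nothing says that the iSLAM-seq libraries came from separate cultures beyond their label as biological replicates, and 2 per group limit precision. Symbols, positions and start sites come from GENCODE M21, and sequences from GRCm38 read with SAMtools 1.23.1.

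The members, lists and tests were chosen with earlier results of these data known. All 10 members are named. From the pathway lists, up to 4 genes called in each direction with the smallest p are named per comparison (RNA-seq, averaged iSLAM-seq), with Gdnf, and of the marker lists the most abundant gene; Gfra2 and Bcl6 (and Etv1 and Id2 in RNA-seq) and Ccnd2 fall outside that rule and were named after their values were seen. For likeness, 3 genes each were selected for Gfra1, Ret, Etv5 and Bcl6b. Of the items selected, 2 genes and 1 sequence are not reported here and were not replaced. Replicate numbers recur across groups. The correlation of same-numbered libraries averaged -0.00168 between genotypes in RNA-seq and 0.0115 between vectors at the same time in iSLAM-seq. No pairing was seen there, though in iSLAM-seq both pairs of a time give the same value. Same-numbered libraries of different times were not compared, so whether 1 culture was sampled over time was not tested. Alternatives were DESeq2 1.42.0, its size factors, no filter, removal of genes above 1% of a library, a replicate block, library totals, scaling to 22 germline genes and leaving out each library. For iSLAM-seq, library totals, leaving out all 0.5 h libraries and germline scaling of single times were chosen after seeing the data.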

Additional observations from a re-analysis of the deposited data

Results flagged for a closer look

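After induction, the gap between the vectors changed for Bcl6b (edgeR F-test, adjusted p = 6.14e-05) and for Lhx1 (edgeR F-test, adjusted p = 0.000924). Bcl6b went from a log2 difference of -0.42 at 0 h to -1.57 at 8 h, and Lhx1 from -0.75 to -1.40. In both genes every Rhox10 library lay below every Ctrl library of the same time. That was also so for Gfra1, Ret, Etv5, Pou3f1 and Eomes, whose change was not called by this test. The share of all genes that separate in this way was not counted. With 1 library left out at a time the highest adjusted p was 0.00171 for Bcl6b and 0.00674 for Lhx1, and under germline scaling the values were 0.000323 and 0.00725. Dixon's test compares the gap between a library and the other 3 of its genotype with the group's range. Over 20 groups of 4 RNA-seq libraries, no gap passed the test's critical value, but 2 came close. For Ret the first wild-type library was at 40.9 CPM and the others at 44.3 to 45.1 CPM, a gap of 0.823 of the range. For Etv4 the second was at 15.7 CPM and the others at 12.7 to 13.2 CPM, a gap of 0.810. With 4 libraries per group, the test cannot show that no library stood apart.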

How the results depend on the processing

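Over 2245 alternative differences for single members, 2110 kept their direction and their side of the threshold, 77 lost the call, 27 gained one and 31 changed sign, 23 of these with a call in neither fit. Most of the 2245 come from fits leaving out 1 library, often one that the contrast does not use. Under germline scaling alone, 4 values in RNA-seq stayed the same, 4 lost the call and 1 changed sign. In the averaged contrast 5 stayed the same, 2 lost the call and 3 changed sign. Of 930 F-test values, which have no direction, 882 kept their side, 13 lost the call and 35 gained one. Scaling to the germline list gave 5 members called in RNA-seq, where 90.7% of all genes were called in either direction. As a choice made after seeing the data, that scaling gave 2 members at 0 h (17.3% of all genes), 2 at 2 h (19.2%) and 4 at 4 h (25%). Under it Etv5 reversed in RNA-seq (0.21), as did Ret (0.0552), Etv4 (0.13) and T (0.31) in the averaged contrast and Ret at 2 h (0.0320), 4 h (0.0840) and 8 h (0.0703). Uncalled differences also changed sign under it, at 0.5 h for Etv4 (0.16) and Id4 (0.0882), at 1 h for Ret (0.16), Etv5 (0.0327) and T (0.25), at 2 h for Etv4 (0.26) and Id4 (0.0064), and at 4 h for Etv4 (0.0090) and T (0.033). The germline scaling itself raises the median of all genes, by its construction. Leaving out 1 library at a time gave 9 to 9 members called in RNA-seq, 4 to 9 at 0 h, 7 to 9 at 0.5 h, 4 to 7 at 1 h, 4 to 8 at 2 h, 5 to 9 at 4 h, 6 to 9 at 8 h, 9 to 9 on average, 2 to 8 for the change from 0 h, 3 to 8 within Ctrl and 3 to 7 within Rhox10. The shares of all genes called then ran from 32.2% to 34%, 4.84% to 17.2%, 6.87% to 26.9%, 4.36% to 16%, 4.6% to 16%, 5.56% to 18%, 8.90% to 22.6%, 31.3% to 40.7%, 1.41% to 19.5%, 3.46% to 27.4% and 5.96% to 20.6%, in the same order. The 4 at 0 h came without the first Ctrl library, the first Rhox10 library or the second Rhox10 library of that time. Id4 at 0.5 h ran from -0.73 without the second Ctrl library of that time to a reversed 0.38 without the first. Uncalled differences that changed sign ran from -0.45 to 0.0667 for Etv4 at 0.5 h, from -0.0282 to 0.0918 at 1 h and from -0.10 to 0.0157 at 2 h, and for T from -0.39 to 0.25 at 1 h and from -0.0880 to 0.0414 on average. Without all 4 libraries at 0.5 h, 6 members changed in their difference and 8 within Rhox10. Fewer samples enter such fits, and beyond that the cause was not tested. Of the peaks, 1 of 5 scored above the median. With the replicate number as a block, 9 members were called in RNA-seq (37.4% of all genes) and 9 on average (37.2%). The block changed no count of members called by over 1.5 times. DESeq2 called 2980 genes in RNA-seq, against 5075, and 835 for the change from 0 h, against 494, where no filter gave 1002 and leaving out 0.5 h 1495. Library totals raised the RNA-seq median from 0.00 to 0.35. Lhx1, T and Eomes, at 28 reads or fewer per RNA-seq library, are limited by depth.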
